A study of Mus musculus with 24 samples.

Results

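The genes described here encode the machinery that makes and keeps the lysosome acid and digestive. The set holds 38 genes chosen by name: 16 subunits of the vacuolar H+-ATPase (V-ATPase), 2 of its accessory proteins, 13 lysosomal hydrolases and their cofactors, 5 lysosomal membrane and cholesterol transport proteins, and 2 regulators. All 38 were found by Ensembl ID among the 55385 genes of the count table, all 38 had enough counts to be tested in every comparison, and 0 of them lay in the chromosome segments that are triplicated in the mutant.

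RNA was sequenced from the hippocampus (HIP) and entorhinal cortex (EC) of 12 male mice, 6 wild type (wt) and 6 Ts65Dn, giving 24 libraries with 6 in each group of genotype and region. Ts65Dn mice carry a freely segregating minichromosome with the part of mouse chromosome 16 that is homologous to human chromosome 21, and also a centromeric piece of chromosome 17 that is not. Wt mice were littermates on the same mixed F1B6C3B background and, like the mutants, were 5 to 6 months old. Both regions came from the same animals, and each library is bulk tissue from 1 mouse.

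The V-ATPase is a rotary proton pump: its cytosolic V1 sector burns ATP, and its membrane V0 sector lets protons into the lumen. The acid it makes activates cathepsins and other hydrolases, which degrade proteins, lipids and glycans delivered by endocytosis and autophagy. Transcription factor EB (TFEB) binds an E-box-like element in the promoters of many of these genes, and inherited loss of several of them causes storage disease with neurodegeneration.

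Because many of these genes are known to share that element, the letters TCACGTG or the reverse complement CACGTGA were searched in RefSeq promoter windows of GRCm38.p6 that run from 250 bases before to 50 bases after the start site. Windows were given for 31 of the 38 genes. They were not given for Atp6v1c1, Atp6v1b2, Npc1, Atp6v0a2, Atp6v1h, Ctsb and Atp6v1g1. The 7 letters were found in 9 of the 31 genes (29.03%), against 1160 of 27025 genes overall (4.29%). The 6-letter core CACGTG, which every such match contains, was in 11 of the 31 (35.48%) against 8.09% of all genes, the further genes being Ctsf and Ctsl.

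The 9 genes are shown because the 7 letters were found in their windows and not in those of the other 22 genes. Stretches are written 5′ to 3′ on the strand of the gene, in lower case, with the core and any neighbouring T or A of the 7-letter match in capitals.
Lamp1: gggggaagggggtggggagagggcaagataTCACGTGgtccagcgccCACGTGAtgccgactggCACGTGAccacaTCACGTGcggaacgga
Atp6v0b: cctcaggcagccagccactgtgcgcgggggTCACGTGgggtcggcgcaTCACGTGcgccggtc
Atp6v0d1: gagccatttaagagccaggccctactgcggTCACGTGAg
Atp6v0e: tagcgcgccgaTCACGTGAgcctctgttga
Atp6v1a: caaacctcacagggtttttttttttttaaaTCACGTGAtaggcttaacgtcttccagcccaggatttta
Ctsa: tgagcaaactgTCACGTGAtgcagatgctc
Ctsd: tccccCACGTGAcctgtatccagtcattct
Gaa: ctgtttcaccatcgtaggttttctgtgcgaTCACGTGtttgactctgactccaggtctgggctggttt
Mcoln1: ggtcgcgcttgTCACGTGttcagttcaggc

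Lamp1, at chr8:13159069-13159160 on the plus strand, held 4 copies within 92 bases, all upstream of the start site and outside annotated exons. Atp6v0b, at chr4:117887334-117887396 on the minus strand, held 2 copies. The copy in Atp6v0d1 (chr8:105566060-105566098, minus strand) lay across the start site, and that in Atp6v0e (chr17:26676387-26676416, plus strand) just after it. Those of Atp6v1a (chr16:44139353-44139421, minus strand) and Gaa (chr11:119267792-119267859, plus strand) lay further upstream. The stretches of Ctsa (chr2:164833749-164833778, plus strand), Ctsd (chr7:142388048-142388077, minus strand) and Mcoln1 (chr8:3500436-3500465, plus strand) show 1 of 2 copies each. A match in these letters is a description of the window and not of binding.

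Levels are given as CPM, a gene's count scaled to a common library total, and between genes as CPM per kilobase of annotated exon. On this per-length scale Psap, the precursor of the saposins that assist sphingolipid breakdown, stood first of the 38 in all 4 groups, with a mean of 594 CPM per kilobase in wt HIP and 803 in wt EC. Tfeb stood last at 1.23 and 0.72 CPM per kilobase. V-ATPase subunits that exist in alternative forms were unequal in level. Atp6v0e2 had 158.6 CPM per kilobase in wt HIP against 3.59 for Atp6v0e, Atp6v0a1 had 69.2 against 9.06 for Atp6v0a2, and Atp6v1g2 had 140 against 19.7 for Atp6v1g1. Summed over the 38 genes, the level was 9304 to 9715 CPM in wt HIP and 9036 to 10298 CPM in Ts65Dn HIP. The same sum was 11427 to 12310 CPM in wt EC and 10880 to 12467 CPM in Ts65Dn EC, so that every EC library lay above every HIP library.

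**Figure D1:**
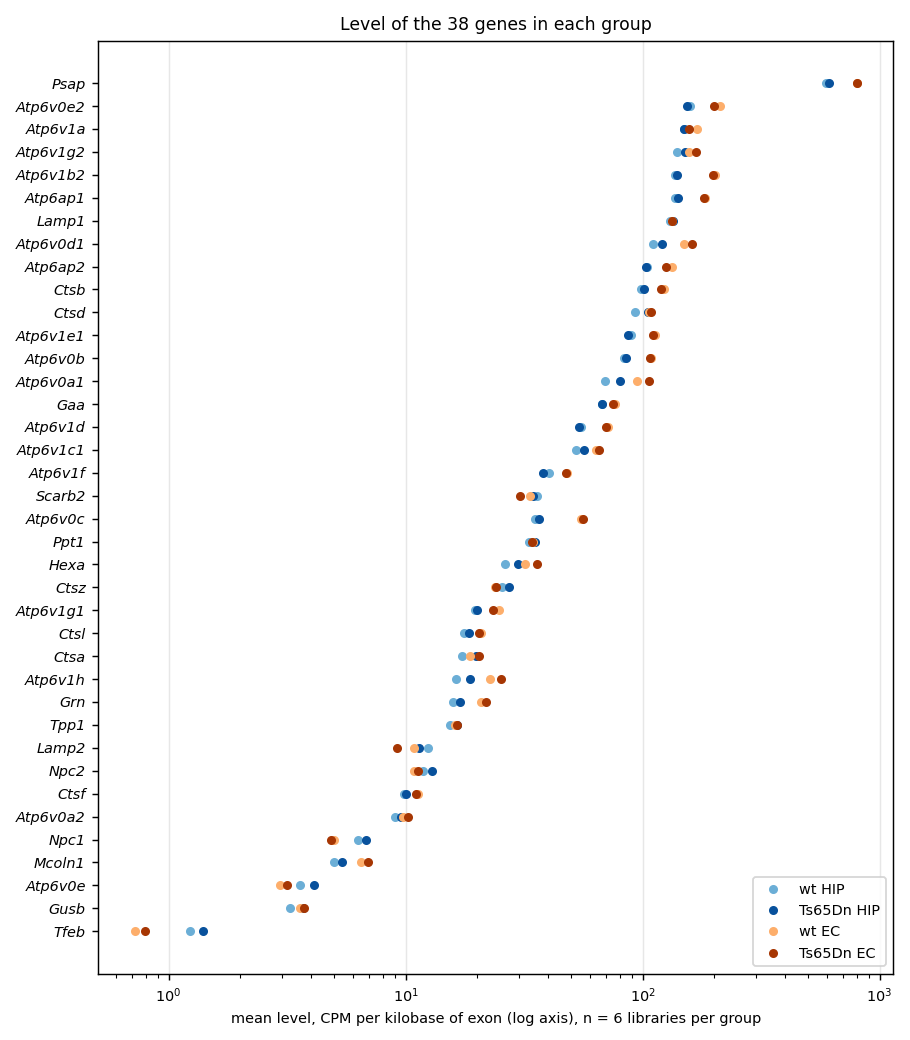
Mean level of each of the 38 genes in CPM per kilobase of exon, on a log axis, in the 4 groups of 6 libraries, ordered by the level in wt HIP. Psap stands alone at the top (594 in wt HIP) and Tfeb at the bottom (1.23), in all 4 groups.

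The libraries held 23128589 to 40476492 counts (median 28597506), and a single member had between 90 counts (Tfeb) and 83864 counts (Psap) in a library. As a check of the genotype, the median level of the triplicated chromosome 16 genes relative to the wt mean was 0.984 to 1.02 in the wt libraries and 1.46 to 1.53 in 5 of the 6 Ts65Dn mice. In the libraries labelled Ts65Dn replicate 3 it was 1.02 in HIP and 1.01 in EC, which goes against the label. Counts and values are given with all libraries as labelled, and the main ones also without these libraries. Not every count was repeated in this way. Among those given only as labelled are the calls split by promoter match, the counts taken mouse by mouse and some counts of unadjusted p values for genotype. As a check of the region, 8 of 8 hippocampal markers were higher and 7 of 8 neocortical and entorhinal markers lower in HIP than in EC, in both genotypes.

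The largest difference among these genes was between the regions. Within wt mice, with the mouse as a block, 33 of 38 genes differed at a Benjamini-Hochberg adjusted p under 0.05 in edgeR's quasi-likelihood test, where 61.3% of all 17196 genes tested did. Of the 33, 27 were lower in HIP than in EC (30.3% of all genes were) and 6 were higher (31% of all genes were). In Ts65Dn mice 26 of 38 differed, 20 lower and 6 higher, against a background of 52.3% of genes, 25.7% lower and 26.6% higher. The median log2 fold change, HIP over EC, was -0.25 in wt and -0.20 in Ts65Dn, against 0.0016 and 0.0039 for all genes tested. Without the mouse labelled Ts65Dn replicate 3, 25 genes differed, against 47.9% of all genes, and the median was -0.17.

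The same direction was seen mouse by mouse. In 17 of the 38 genes (44.7%) the HIP library lay below the EC library of the same animal in all 12 mice, against 19.9% of all genes. In 4 of the 38 (10.5%) it lay above in all 12, against 20.4% of all genes. Of the 38, 20 were called lower in both genotypes, 5 were called higher in both and 0 were called in opposite directions. The share of all genes called alike in both genotypes was not counted.

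**Figure D2:**
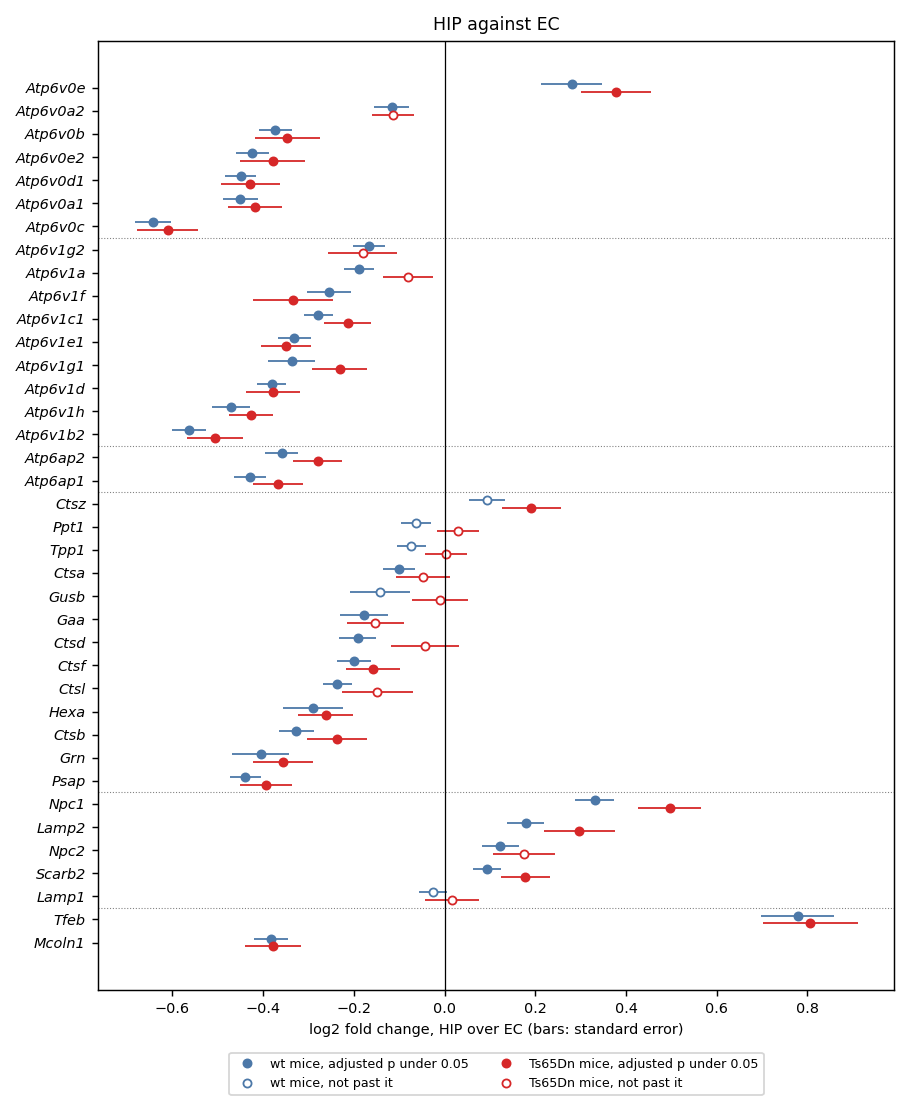
Log2 fold change of HIP over EC with its standard error for each gene, in wt mice (blue) and in mice labelled Ts65Dn (red), with 6 mice each and dotted lines between roles. Filled points passed an adjusted p of 0.05. Nearly all V0, V1 and accessory genes lie left of 0, while Atp6v0e, 4 of the 5 membrane and cholesterol transport genes and Tfeb lie to the right in wt.

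The proton pump was the most uniform part of the set. Of the 16 V0 and V1 genes, 15 were lower in HIP in wt and 12 in Ts65Dn, where 30.3% and 25.7% of all genes were. In all 12 mice, the one labelled Ts65Dn replicate 3 included, 11 of the 16 were lower, against 19.9% of all genes. With that mouse left out, 5 of 7 V0 and 7 of 9 V1 genes were called lower in Ts65Dn. Both accessory genes, Atp6ap1 and Atp6ap2, were lower in both genotypes. The exception was Atp6v0e, the less abundant form of the small e subunit.

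Atp6v0c encodes the proteolipid that forms most of the rotating ring of V0. Its level in wt ranged from 93.3 CPM (median 117) to 151 CPM in HIP and from 152 CPM (median 184) to 254 CPM in EC. In Ts65Dn it ranged from 85.8 CPM (median 125) to 175 CPM in HIP and from 130 CPM (median 186) to 264 CPM in EC. The groups overlapped in Ts65Dn but not in wt, and each of the 12 mice had less in HIP. The fold change was 0.64 in wt (log2 -0.64 ± 0.04 (SE, n = 6), adjusted p = 3.8e-07, edgeR) and 0.65 in Ts65Dn (log2 -0.61 ± 0.07, adjusted p = 3.5e-05). Reads of this gene could be shared with its pseudogenes Atp6v0c-ps2 and Atp6v0c-ps1, which had 21413 and 203 counts over all libraries, so its level is uncertain.

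Atp6v1b2 encodes the B subunit of the V1 catalytic hexamer in the brain. In wt it ranged from 699 CPM (median 726) to 757 CPM in HIP and from 1006 CPM (median 1057) to 1177 CPM in EC. The Ts65Dn range was from 646 CPM (median 760) to 804 CPM in HIP and from 936 CPM (median 1077) to 1146 CPM in EC. The regions did not overlap in either genotype. The log2 fold change was -0.56 ± 0.04 in wt (adjusted p = 6.7e-07, edgeR) and -0.51 ± 0.06 in Ts65Dn (adjusted p = 8.1e-05).

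Atp6v1h encodes the H subunit, which couples and restrains V1. In wt it ranged from 147 CPM (median 160) to 174 CPM in HIP and from 208 CPM (median 223) to 230 CPM in EC. In Ts65Dn it ranged from 165 CPM (median 187) to 193 CPM in HIP and from 229 CPM (median 244) to 265 CPM in EC. HIP and EC did not overlap within a genotype, with log2 fold changes of -0.47 ± 0.04 in wt and -0.43 ± 0.05 in Ts65Dn (edgeR adjusted p = 4.7e-06 and 4.1e-05).

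Atp6v0a1 and Atp6v0d1 encode the form of the a subunit that neurons use most, which holds the path of the protons, and the subunit that links the ring to the central stalk. Atp6v0a1 ranged in wt from 432 CPM (median 453) to 484 CPM in HIP and from 586 CPM (median 617) to 658 CPM in EC. Atp6v0d1 ranged in wt from 180 CPM (median 199) to 212 CPM in HIP and from 257 CPM (median 267) to 280 CPM in EC. In Ts65Dn, Atp6v0a1 ranged from 452 CPM (median 530) to 590 CPM in HIP and from 611 CPM (median 706) to 792 CPM in EC.
For both genes the regions were separate in both genotypes. The log2 fold change was -0.45 in wt for each (SE 0.039 and 0.035), and -0.42 ± 0.06 for Atp6v0a1 and -0.43 ± 0.06 for Atp6v0d1 in Ts65Dn. Atp6v0d1 in Ts65Dn ranged from 180 CPM (median 222) to 236 CPM in HIP and from 257 CPM (median 297) to 306 CPM in EC.

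The e subunit was the place where the pump genes parted. Atp6v0e2, the abundant form, ranged in wt from 340 CPM (median 387) to 403 CPM in HIP and from 488 CPM (median 502) to 534 CPM in EC. Atp6v0e ranged in wt from 11.4 CPM (median 13.2) to 15.6 CPM in HIP and from 10.3 CPM (median 10.6) to 12.0 CPM in EC. Atp6v0e2 was lower in HIP in all 12 mice (log2 -0.42 ± 0.04 in wt and -0.38 ± 0.07 in Ts65Dn), and Atp6v0e was higher in all 12 (log2 0.28 ± 0.07 in wt and 0.38 ± 0.08 in Ts65Dn, edgeR adjusted p = 0.0042 and 0.0022). The HIP and EC ranges of Atp6v0e overlapped in both genotypes. In Ts65Dn, Atp6v0e2 ranged from 287 CPM (median 380) to 428 CPM in HIP and from 395 CPM (median 481) to 545 CPM in EC, and these overlapped.

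Among the remaining pump genes in wt, log2 fold changes ran from -0.38 for Atp6v1d to -0.12 for Atp6v0a2. Atp6v1e1, Atp6v1f, Atp6v1c1, Atp6v1g1 and Atp6v0b were lower in both genotypes. Atp6v1a (log2 -0.19 in wt and -0.08 in Ts65Dn), Atp6v1g2 (-0.17 and -0.18) and Atp6v0a2 (-0.12 and -0.11) passed the test in wt but not in Ts65Dn. The call for Atp6v0a2 in wt was lost without wt replicate 1, 2 or 3 (adjusted p 0.0522 to 0.0811, edgeR). Atp6ap1, which guides assembly of the pump, ranged in wt from 399 CPM (median 414) to 431 CPM in HIP and from 534 CPM (median 555) to 585 CPM in EC, without overlap (log2 -0.43 ± 0.04). In Ts65Dn it ranged from 399 CPM (median 434) to 440 CPM in HIP and from 496 CPM (median 567) to 596 CPM in EC, again apart (log2 -0.37 ± 0.06). Atp6ap2, the prorenin receptor, gave log2 -0.36 in wt and -0.28 in Ts65Dn.

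**Figure D3:**
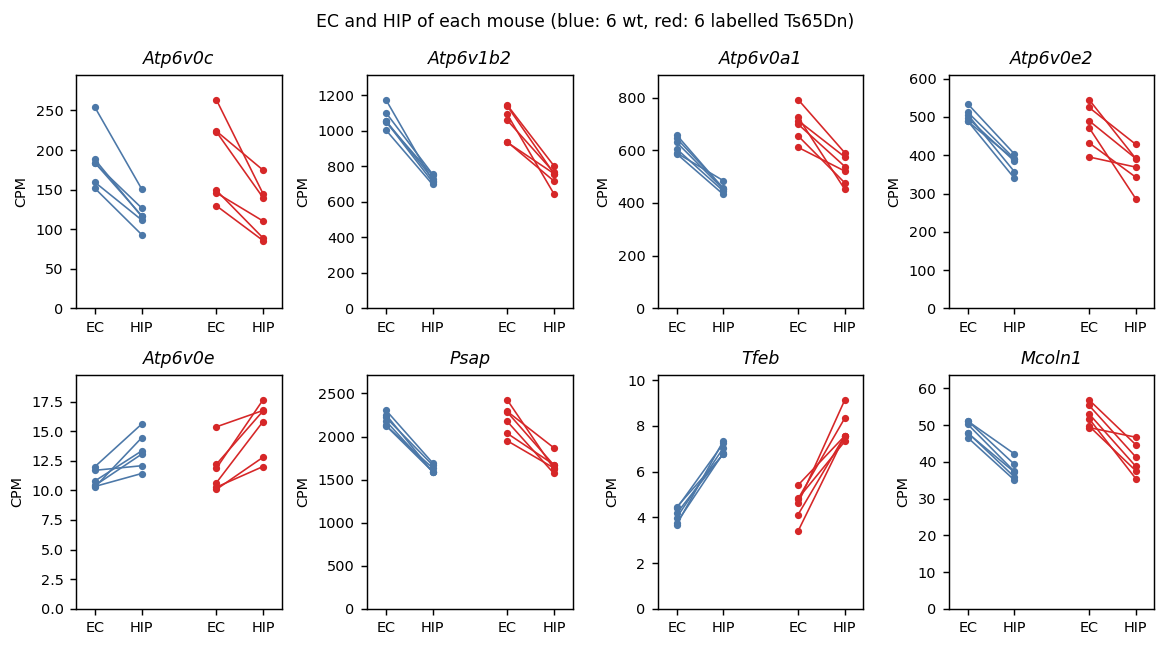
Level in CPM of 8 genes in EC and HIP, with a line joining the 2 libraries of each mouse (6 wt in blue, 6 labelled Ts65Dn in red) and the axis starting at 0. Lines fall from EC to HIP for Atp6v0c, Atp6v1b2, Atp6v0a1, Atp6v0e2, Psap and Mcoln1 and rise for Atp6v0e and Tfeb, in all 12 mice.

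The hydrolases were mostly lower in HIP in wt as well, but by less, and fewer of them passed in Ts65Dn. In wt, 9 of 13 were lower and 0 higher, where 30.3% and 31% of all genes were. In Ts65Dn 5 were lower and 1 was higher, where 25.7% and 26.6% of all genes were. There, 4 were lower and 1 was higher without the mouse labelled Ts65Dn replicate 3, when 47.9% of all genes differed in either direction.

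Psap ranged in wt from 1590 CPM (median 1615) to 1696 CPM in HIP and from 2127 CPM (median 2202) to 2307 CPM in EC. In Ts65Dn it ranged from 1571 CPM (median 1651) to 1869 CPM in HIP and from 1951 CPM (median 2230) to 2425 CPM in EC. The regions were apart in both genotypes (log2 -0.44 ± 0.03 in wt and -0.39 ± 0.06 in Ts65Dn, edgeR adjusted p = 1.7e-06 and 0.00026). Grn, whose product progranulin is a lysosomal cofactor linked to frontotemporal dementia, ranged in wt from 51.9 CPM (median 53.8) to 62.8 CPM in HIP and from 65.3 CPM (median 71.6) to 84.1 CPM in EC. In Ts65Dn its ranges overlapped, from 53.0 CPM (median 58.8) to 65.5 CPM in HIP and from 59.3 CPM (median 75.6) to 86.2 CPM in EC, with HIP lower in 11 of 12 mice over both genotypes (log2 -0.41 ± 0.06 in wt and -0.36 ± 0.07 in Ts65Dn).

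The lysosomal proteases Ctsb and Ctsf and the ganglioside-degrading enzyme Hexa were lower in both genotypes, with log2 values of -0.33, -0.20 and -0.29 in wt. The call for Ctsf in Ts65Dn was near the threshold (adjusted p = 0.045, edgeR) and was lost when any of replicates 1 to 5 was left out. Ctsl, Ctsd, Gaa and Ctsa, which are proteases apart from the glycogen-degrading Gaa, passed in wt (log2 -0.24, -0.19, -0.18 and -0.10) but not in Ts65Dn. Ctsa lost its call in wt without replicate 2, 3 or 6. Ctsz was higher in HIP in Ts65Dn (log2 0.19 ± 0.07, adjusted p = 0.031) and had a log2 fold change of 0.09 in wt (adjusted p = 0.064), and the call was lost without Ts65Dn replicate 1, 2, 5 or 6. Tpp1 and Ppt1, enzymes that are each missing in a form of neuronal ceroid lipofuscinosis, and Gusb passed in neither genotype. HIP was the lower library in 6, 6 and 7 of 12 mice for Tpp1, Ppt1 and Gusb.

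Calls among the membrane and cholesterol transport genes went the other way, though only that of Npc1 held in every setting tried. In wt 4 of 5 were higher in HIP and in Ts65Dn 3 of 5, where 31% and 26.6% of all genes were. Npc1, the lysosomal cholesterol exporter, ranged from 66.8 CPM (median 71.7) to 74.5 CPM in wt HIP and from 53.3 CPM (median 56.0) to 60.9 CPM in wt EC without overlap, and was higher in HIP in all 12 mice (log2 0.33 ± 0.04 in wt and 0.50 ± 0.07 in Ts65Dn). Npc2, its soluble partner, gave log2 0.12 ± 0.04 in wt and 0.18 ± 0.07 in Ts65Dn, where it did not pass. Scarb2, the receptor that carries glucocerebrosidase to lysosomes, was higher in HIP in all 12 mice, by log2 0.09 ± 0.03 in wt and 0.18 ± 0.05 in Ts65Dn. Lamp2, a lysosomal membrane glycoprotein needed for autophagy, gave log2 0.18 ± 0.04 in wt and 0.30 ± 0.08 in Ts65Dn and was higher in 11 of 12. Lamp1 passed in neither genotype (log2 -0.03 and 0.02). When smooth trends of GC content and exon length were removed from each library, the calls of Lamp2, Scarb2 and Npc2 were lost and the wt value of Scarb2 changed sign, with log2 0.03, -0.01 and 0.05 in wt, while Npc1 kept its call. Scarb2 also lost its call without wt replicate 3, 4 or 6 or without Ts65Dn replicate 2, and Npc2 without wt replicate 1 or 4. In wt both lost their calls with DESeq2 (adjusted p = 0.064 for Scarb2 and 0.066 for Npc2). The same happened in edgeR with no filter on low counts (adjusted p = 0.106 and 0.055).

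The regulators split. Tfeb ranged in wt from 6.76 CPM (median 6.93) to 7.35 CPM in HIP and from 3.68 CPM (median 4.08) to 4.45 CPM in EC. In Ts65Dn it ranged from 7.32 CPM (median 7.57) to 9.13 CPM in HIP and from 3.40 CPM (median 4.71) to 5.41 CPM in EC. All HIP libraries lay above all EC libraries, and the fold change was 1.72 in wt (log2 0.78 ± 0.08) and 1.75 in Ts65Dn (log2 0.81 ± 0.11, edgeR adjusted p = 1.4e-05 and 0.00012), the largest of the 38 in size.
Mcoln1, the calcium channel of the lysosomal membrane that acts upstream of TFEB, ranged in wt from 35.1 CPM (median 37.3) to 42.2 CPM in HIP and from 46.6 CPM (median 49.1) to 51.2 CPM in EC. Its Ts65Dn range was from 35.5 CPM (median 40.1) to 46.7 CPM in HIP and from 49.4 CPM (median 52.4) to 56.9 CPM in EC. It was lower in HIP without overlap in both genotypes (log2 -0.38 ± 0.04 and -0.38 ± 0.06).

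Without the mouse labelled Ts65Dn replicate 3, the same 25 of the 26 genes were called between regions in Ts65Dn and in the same direction, Ctsf being the one lost. The log2 values of the main pump genes were then -0.56 for Atp6v0c, -0.45 for Atp6v1b2, -0.39 for Atp6v1h, -0.36 for Atp6v0a1, -0.36 for Atp6v0d1, -0.31 for Atp6v0e2 and 0.43 for Atp6v0e. Psap had -0.36, Grn -0.33, Atp6ap1 -0.33 and Mcoln1 -0.37, and Npc1 had 0.51, Lamp2 0.25, Scarb2 0.17 and Tfeb 0.81. The summed level of the 38 genes was then 9609 to 10298 CPM in Ts65Dn HIP and 10880 to 12356 CPM in Ts65Dn EC.

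Calls between regions were also counted with and without the promoter match. Of the 9 genes with the 7 letters, 7 were lower and 1 was higher in HIP in wt, and of the 22 other genes with a window 14 were lower and 4 higher. In Ts65Dn the counts were 3 lower and 1 higher among the 9, and 12 lower and 4 higher among the 22. Of all genes tested, 30.3% were lower and 31% higher in wt, and 25.7% and 26.6% in Ts65Dn. Calls among all genes with the 7 letters were not counted, and a link of the match to the direction was not tested.

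Cell type markers also moved between the regions. The 6 oligodendrocyte markers were all higher in HIP in both genotypes, and their summed level was 6693 to 9153 CPM in wt HIP against 1385 to 2705 CPM in wt EC. The 7 neuronal markers summed to 6309 to 7345 CPM in wt HIP against 8782 to 9997 CPM in wt EC, with 5 of 7 lower in wt and 4 in Ts65Dn. Of 10 microglial markers 9 were lower in HIP in wt and 7 in Ts65Dn, with sums of 440 to 504 CPM in wt HIP and 473 to 660 CPM in wt EC. The 5 endothelial markers summed to 157 to 183 CPM in wt HIP and 207 to 251 CPM in wt EC, with 5 of 5 lower in HIP in wt (median log2 -0.43) and 4 of 5 in Ts65Dn. Of 6 astrocyte markers 3 were lower and 2 higher in HIP in both genotypes, with sums of 4602 to 5402 CPM in wt HIP and 5508 to 6273 CPM in wt EC, and of 5 meningeal markers 1 was higher in each. The 5 choroid plexus markers summed to 55.4 to 5197 CPM across the 12 HIP libraries and 8.49 to 51.0 CPM across the EC libraries, where Folr1 and Kcne2 were under 1 CPM. Without the mouse labelled Ts65Dn replicate 3, the Ts65Dn counts were 6 of 6 oligodendrocyte markers higher and 4 of 7 neuronal, 4 of 10 microglial and 3 of 5 endothelial markers lower. In bulk tissue, fewer cells of a type and less RNA per cell cannot be told apart, and the part of these markers in the differences between regions was not tested.

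A list of 109 other genes of the lysosome, its V-ATPase, sorting route and mTORC1 platform was less uniform. Of 100 tested in wt, 45 were lower and 25 higher in HIP, where 30.3% and 31% of all genes were. Of 101 tested in Ts65Dn, 34 were lower and 25 higher (32 and 24 without replicate 3), where 25.7% and 26.6% of all genes were. The median log2 fold change was -0.10 in wt and -0.03 in Ts65Dn, against 0.0016 and 0.0039 for all genes tested. The lowest values belonged to the protease Ctsk (log2 -1.005 in wt), the acid sphingomyelinase Smpd1 (-0.60) and Tm9sf4 (-0.56). The highest belonged to the sulfatase Arsg (1.77), the lysosomal channel Tpcn2 (0.89) and the TFEB relative Mitf (0.88), and all 6 genes were called in the same direction in Ts65Dn.

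The comparison of genotypes gave much smaller differences. In HIP, 0 of the 38 genes passed an adjusted p of 0.05 in edgeR's quasi-likelihood test, against 1.04% of all 17355 genes. DESeq2 called 3 (7.89%, against 3.81% of all genes), which were Ctsa, Atp6v1h and Atp6v0a1. At an unadjusted p under 0.05 there were 7 (18.4%, against 14.8% of all genes), and all 7 had the higher mean in Ts65Dn. Over the set, 29 fold changes were positive and 9 negative, from -0.12 (Lamp2) to 0.21 (Atp6v0a1), with a median log2 of 0.06 against 0.0047 for all genes. With trends of GC content and exon length removed, the median of the 38 was 0.04. By role, 12 of 13 hydrolase genes, 6 of 7 V0 genes and 5 of 9 V1 genes had a positive value. These genes were measured in the same libraries, and the share of positive values among all genes was not counted.

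The smallest p in HIP belonged to Ctsa, the protective protein that stabilises β-galactosidase and neuraminidase. It ranged from 76.2 CPM (median 82.9) to 87.7 CPM in wt HIP and from 88.3 CPM (median 93.1) to 98.6 CPM in Ts65Dn HIP. The groups did not overlap, which was true of 1 of 38 members (2.63%) and of 1.67% of all genes. The log2 difference was 0.18 ± 0.04 (adjusted p = 0.054, edgeR), and the adjusted p ranged from 0.0018 to 0.27 over the other settings tried. On the opposite strand Ctsa overlaps Pltp, which had 63.6% as many counts, and the strand setting of the counting is not given.

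Atp6v1h, with the ranges given above, had a log2 difference of 0.19 ± 0.05 in HIP (adjusted p = 0.081, edgeR), and Atp6v0a1 one of 0.21 ± 0.06 (adjusted p = 0.14). Their wt and Ts65Dn ranges overlapped. The lysosomal glycosidases Gusb and Hexa had log2 differences of 0.18 ± 0.06 and 0.18 ± 0.07 (adjusted p = 0.15 and 0.26). Gusb ranged from 13.9 CPM (median 14.6) to 15.96 CPM in wt and from 15.95 CPM (median 16.6) to 17.9 CPM in Ts65Dn. Hexa ranged from 46.0 CPM (median 52.5) to 64.1 CPM in wt and from 55.5 CPM (median 59.8) to 63.2 CPM in Ts65Dn.
Tfeb had a log2 difference of 0.18 ± 0.07 (adjusted p = 0.29) and Ctsd, the main aspartic protease, one of 0.18 ± 0.08 (adjusted p = 0.32). None of these 7 passed.

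The libraries labelled Ts65Dn replicate 3 mattered here. Without that library, 4 of 38 genes passed in HIP (10.5%, against 1.82% of all genes). They were Ctsa (log2 0.20, adjusted p = 0.030), Atp6v1h (0.22, 0.024), Atp6v0a1 (0.25, 0.038) and Atp6v1c1 (0.15, 0.040), all higher in Ts65Dn. The other 5 Ts65Dn libraries then lay above all wt libraries for Ctsa, Atp6v1h, Atp6v1c1 and Ctsb, 4 of 38 (10.5%), and 3.54% of all genes had no overlap in that comparison. The median log2 of the 38 was 0.06 with and without it.

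**Figure D4:**
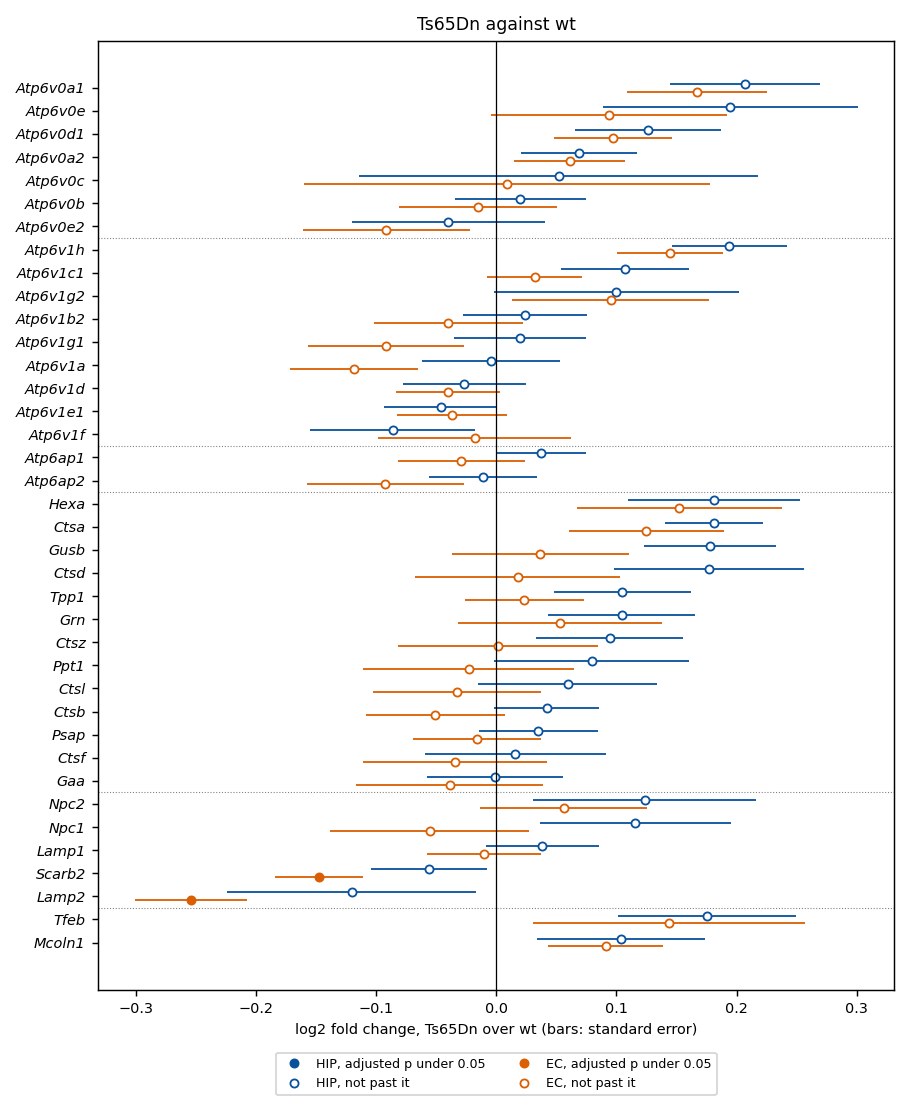
Log2 fold change of Ts65Dn over wt with its standard error for each gene, in HIP (blue) and EC (orange), with 6 mice per genotype and all libraries as labelled. Filled points passed an adjusted p of 0.05, which holds for Lamp2 and Scarb2 in EC. In HIP 29 of the 38 points lie right of 0.

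In EC, 2 of 38 genes passed (5.26%, against 2.5% of all 17049 genes), and both were lower in Ts65Dn (1.35% of all genes were called lower). These were the membrane proteins Lamp2 and Scarb2. At an unadjusted p under 0.05 there were 5 (13.2%, against 19% of all genes), and the median log2 of the 38 was -0.01 against 0.0046 for all genes.

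Lamp2 ranged from 99.1 CPM (median 104.5) to 108 CPM in wt EC and from 82.1 CPM (median 89.2) to 92.3 CPM in Ts65Dn EC. Scarb2 ranged from 202 CPM (median 212) to 217 CPM in wt EC and from 182 CPM (median 192) to 197 CPM in Ts65Dn EC. In both genes the genotypes did not overlap, and these 2 of 38 (5.26%) compare with 2.46% of all genes. Both also stood apart without the library labelled Ts65Dn replicate 3, where 4.08% of all genes did. Lamp2 fell by 0.25 ± 0.05 on the log2 scale (adjusted p = 0.017, edgeR) and Scarb2 by 0.15 ± 0.04 (adjusted p = 0.049). In HIP, where the genotypes overlapped, Lamp2 ranged from 106 CPM (median 113) to 139 CPM in wt and from 87.3 CPM (median 115) to 127 CPM in Ts65Dn (log2 -0.12 ± 0.10, adjusted p = 0.63). The HIP value of Scarb2 was log2 -0.06 ± 0.05 (adjusted p = 0.64).

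The call for Lamp2 held when each of the 12 mice was left out in turn (adjusted p 0.0175 to 0.0458), and without the library labelled Ts65Dn replicate 3 the log2 value was -0.24. The call for Scarb2 was lost without any of 11 mice (adjusted p up to 0.113) and held only without Ts65Dn replicate 6. Without Ts65Dn replicate 3, 1 of 38 genes passed in EC, against 2.79% of all genes, and the median log2 of the 38 was -0.03. With trends of GC content and exon length removed, Lamp2 had a log2 of -0.09 (adjusted p = 0.57) and Scarb2 one of -0.13 (adjusted p = 0.13), and neither passed.

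Pump genes in EC had differences of either sign. Atp6v1h had a log2 difference of 0.14 ± 0.04 (adjusted p = 0.095, edgeR) and Atp6v0a1 one of 0.17 ± 0.06 (adjusted p = 0.14), both with the higher mean in Ts65Dn. Atp6v0d1 had a log2 difference of 0.10 ± 0.05 (adjusted p = 0.30). Atp6v1a, which encodes the catalytic A subunit, ranged from 981 CPM (median 1028) to 1077 CPM in wt EC and from 884 CPM (median 932) to 1062 CPM in Ts65Dn EC (log2 -0.12 ± 0.05, adjusted p = 0.24). In HIP, Atp6v1a ranged from 835 CPM (median 914) to 934 CPM in wt and from 774 CPM (median 905) to 981 CPM in Ts65Dn, where its log2 difference was -0.0041. None of these passed in edgeR. DESeq2 called 3 of 38 in EC (7.89%, against 6.69% of all genes), Lamp2, Scarb2 and, higher in Ts65Dn, Atp6v1h (adjusted p = 0.023).

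**Figure D5:**
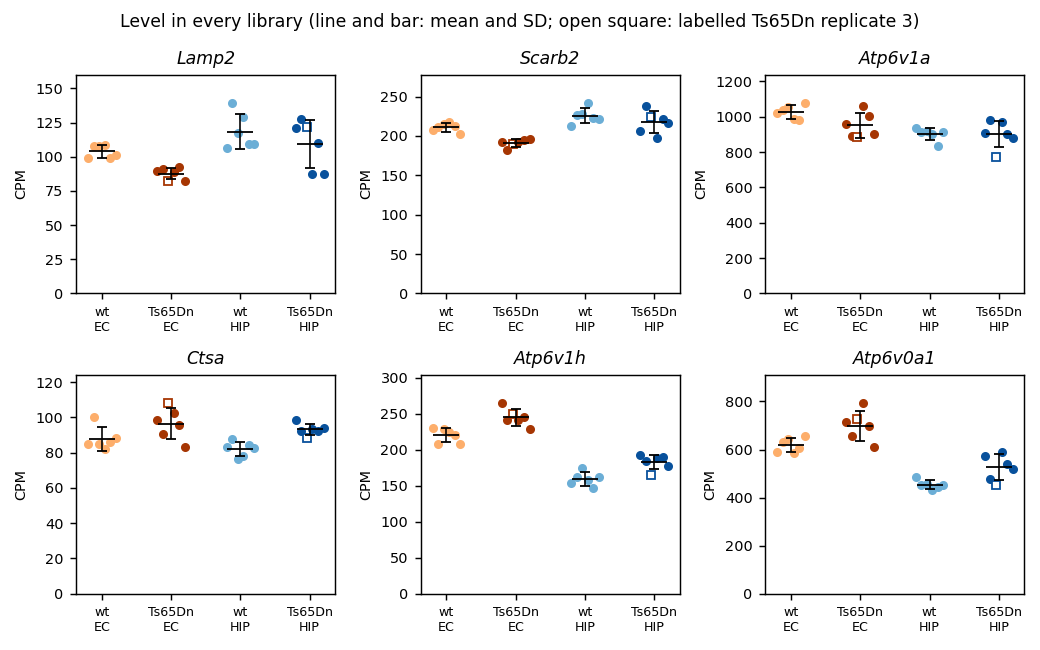
Level in CPM of 6 genes in every library, by genotype and region, with the mean and SD of 6 libraries as a line and bar and the libraries labelled Ts65Dn replicate 3 as open squares. In EC the Ts65Dn points of Lamp2 (82.1 to 92.3) and Scarb2 (182 to 197) lie below all wt points, and in HIP those of Ctsa (88.3 to 98.6) lie above all wt points.

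Of the other lysosomal genes, 0 of 100 passed in HIP, against 1.04% of all genes. There were 20 with an unadjusted p under 0.05 (20%, against 14.8% of all genes). In EC 2 of 101 passed (1.98%, against 2.5% of all genes), both lower in Ts65Dn. They were Tmem106b, a lysosomal membrane protein (log2 -0.25 ± 0.06, adjusted p = 0.048, edgeR), and the folliculin partner Fnip1 (log2 -0.27 ± 0.07, adjusted p = 0.045). Among cell type markers, the microglial receptor P2ry12 was the only one of 10 microglial genes called, lower in Ts65Dn in HIP (log2 -0.27) and EC (log2 -0.45). The summed level of 6 astrocyte markers was 5508 to 6273 CPM in wt EC and 4207 to 5661 CPM in Ts65Dn EC, with 0 of 6 called. Without the library labelled Ts65Dn replicate 3, 0 of 101 other lysosomal genes passed in EC, where 2.79% of all genes did. In HIP 0 of 100 passed, against 1.82% of all genes. In EC 17 of the 101 then had an unadjusted p under 0.05, and Tmem106b and Fnip1 lost their calls (adjusted p = 0.0576 and 0.0647, edgeR). P2ry12 kept its call in both regions, and 1 of the 6 astrocyte markers, Slc1a2, was then called lower in EC. The part of these cells in the values of Lamp2 and Scarb2 was not tested.

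Whether the genotype effect differed between HIP and EC was tested in the 24 libraries together with the mouse as a block. For 0 of 38 genes did it differ at an adjusted p of 0.05 (0% of 18109 genes), and 0 of 38 had an unadjusted p under 0.05 (4.1% of all genes did), with 0 calls from DESeq2. Lamp2 had an interaction of log2 0.12 ± 0.09 and Scarb2 of 0.08 ± 0.06, so that their calls in EC and not in HIP do not show a difference between the regions. The widest value was that of Npc1, at log2 0.17 ± 0.08 (unadjusted p = 0.067, adjusted p = 1, edgeR). Without the mouse labelled Ts65Dn replicate 3, 0 of 38 passed and 5 of 38 had an unadjusted p under 0.05 (6.45% of all genes did), Atp6v1a, Atp6v1c1, Ctsb, Ctsd and Ctsz, each with an adjusted p of 0.763 in edgeR.

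Some members share their locus with a gene on the other strand. The libraries were made with a stranded kit, but the strand setting of the counting is not given in the sources used here, so it is not known whether their reads were kept apart. Cap1 had 223% as many counts as Ppt1, Nelfcd 102% as many as Ctsz, and Fam171a2 93.1% as many as Grn. Rmc1 had 32.3% as many as Npc1, Slc25a18 15.3% as many as Atp6v1e1, Rgs20 14.97% as many as Atp6v1h and Fdft1 10.6% as many as Ctsb.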

How the data were processed

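Per the labels, libraries came from poly-T selected RNA with a stranded mRNA kit, while the study's methods describe a stranded total RNA kit with rRNA depletion and also name the molecule polyA RNA. The authors sequenced single-end 50-base reads, demultiplexed with bcl2fastq 2.17.1.14, aligned them to GRCm38 with Hisat2 and deposited HTSeq-count values, raw counts per gene, which were used as deposited. The strand setting is not given in the sources used here. Further deposited tables hold the authors' own comparisons by DESeq2 and FCROS and were not used, and 0 columns of the count table were left out. Of 55385 genes, 55144 (99.6%) matched GENCODE vM21.

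Counts were tested with edgeR 4.0.16 in R 4.3.3 (filterByExpr, TMM, quasi-likelihood test, Benjamini-Hochberg over all genes tested, adjusted p under 0.05). Genotypes were compared within each region over 6 against 6 libraries. Regions were compared within each genotype with a term for each mouse, since the titles give both libraries of a mouse the same animal number, and their deviations from the group means correlated at 0.171 to 0.493. CPM values use TMM over all 24 libraries, and errors of fold changes are standard errors. The script was tested on simulated data. Of genes changed 1.5-fold there, 62.5% were recovered for genotype in HIP, 57% in EC and 60% for the interaction. Smaller changes were not simulated. Alternatives were DESeq2 1.42.0, its size factors, other count filters, a threshold of 0.1, removal of GC and length trends (mgcv 1.9.3), replicate blocks and leaving out each mouse. Depths of 23128589 to 40476492 counts per library limit precision mainly for Tfeb.

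The 38 genes, the other gene lists and the markers were chosen with earlier results of these data known. The lowest, median and highest library values are given for the 6 members with the smallest p for genotype in each region (in that region), members called for genotype, the 10 with the largest regional change among those called in both genotypes, and both regulators. Members named beyond these were chosen after their values were seen.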

Additional observations from a re-analysis of the deposited data

Results flagged for a closer look

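In 15 of 152 groups of 6 libraries, the highest or lowest library of a gene stood apart from the other 5, with a gap that took more of the group's range than Dixon's 95% critical value allows. For independent groups of normally distributed values, chance alone gives about 1 in 20. Here the 38 genes were measured in the same 24 libraries, so the groups are not independent and the count cannot be judged by that rate.

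The hydrolases held most of them. Ctsl was highest in wt replicate 2 in both regions, with 137 CPM in HIP against 107 to 112 CPM in the others (gap 0.823 of the range) and 155 CPM in EC against 128 to 133 CPM (0.793). Ctsd was highest in wt replicate 2 in HIP (255 CPM against 206 to 219 CPM, 0.727) and, among Ts65Dn HIP libraries, in replicate 1 (314 CPM against 226 to 244 CPM, 0.793). Psap was highest in the same Ts65Dn replicate 1 library (1869 CPM against 1571 to 1673 CPM, 0.657). Ctsa was highest in wt EC replicate 2 (100.5 CPM against 82.0 to 88.3 CPM, 0.662). Tpp1 was highest in wt HIP replicate 4 (90.9 CPM against 73.2 to 79.1 CPM, 0.664), and Grn in wt HIP replicate 1 (62.8 CPM against 51.9 to 54.7 CPM, 0.740).

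The libraries labelled Ts65Dn replicate 3 gave 3 flags. Ctsb was lowest in that HIP library (564 CPM against 621 to 632 CPM, 0.835), as was Atp6v1c1 (265 CPM against 313 to 341 CPM, 0.632). Ctsz was highest in that EC library (44.5 CPM against 30.3 to 34.8 CPM, 0.683).

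Among other pump and membrane genes, Atp6v0c was highest in wt EC replicate 2 (254 CPM against 152 to 188 CPM, 0.644). Atp6v1a was lowest in wt HIP replicate 5 (835 CPM against 901 to 934 CPM, 0.667) and Atp6v1g1 in wt HIP replicate 4 (20.1 CPM against 22.2 to 23.1 CPM, 0.708). Lamp1 was highest in Ts65Dn HIP replicate 2 (406 CPM against 337 to 357 CPM, 0.702).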

How the results depend on the processing

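For genotype in HIP, 0 members passed as reported, 3 with DESeq2 (3.81% of all genes), 1 with at least 10 counts in every library (1.27%), 2 at an adjusted p under 0.1 (2.24%), and 0 to 4 when each mouse was left out, the 4 being without Ts65Dn replicate 3. In EC 2 passed as reported, 3 with DESeq2 (6.69%) and at an adjusted p under 0.1 (6.01%), 1 with no filter on low counts (0.815%), 0 with GC content and length trends removed (0.757%), and 1 to 2 when each mouse was left out. With a replicate block, 0 members passed in EC (0.211% of all genes; Lamp2 adjusted p = 0.072, Scarb2 0.146, edgeR) and 0 in HIP. Same-numbered wt and Ts65Dn mice are different animals, their deviations correlated at -0.273 to 0.23, and 2 of 12 correlated best with their own number, so the numbers give no pairing. Between regions, DESeq2 called 29 members in wt (53.5% of all genes) and 27 in Ts65Dn (47.2%). In wt, Atp6v0a2, Ctsa, Scarb2 and Npc2 lost their calls in DESeq2 (adjusted p 0.055 to 0.071). Without the term for the mouse, 28 members passed between regions in wt (33 reported) and 24 in Ts65Dn (26 reported). Of all genes, 55.2% then passed in wt (61.3% reported) and 48.2% in Ts65Dn (52.3% reported). With GC and length trends removed the median regional log2 value in wt was -0.30 (reported -0.25). Signs turned for Scarb2 between regions in wt with those trends removed (-0.014), for Ctsa between regions in Ts65Dn without Ts65Dn replicate 3 (0.0019, range over the mice left out -0.090 to 0.0019) and for Gusb there without Ts65Dn replicate 1 (0.019) or 4 (0.0066), with a range of -0.038 to 0.019. The last 2 genes were not called there. The causes of these changes were not tested.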
